A study of Homo sapiens with 12 samples.

Results

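The 10 genes described here build the site on a chromosome that spindle fibres grip, or delay cell division until every chromosome is gripped. They are CENPA, CENPM, CENPN, NDC80, NUF2, CENPE, CENPF, BUB1, BUB1B and MAD2L1, taken by name with every array probe annotated to them. They make up 10 of 12378 genes tested, those with a signal above background on the 2 arrays of 1 group or more. RNA levels were read on Illumina bead arrays in human cell lines of papillary thyroid cancer (TPC1, BCPAP and K1) with and without Y15, a small molecule that inhibits the focal adhesion kinase FAK. The 6 groups were TPC1, BCPAP and K1 cells given 10 µM Y15 for 24 h, and the same 3 lines left untreated over that time, with 2 arrays in each, 12 in all. Each line is 1 established tumour line, and for these lines no source says that the duplicates came from separate cultures, so each p-value rests on a spread between samples that may be technical.

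A kinetochore is the protein plate that assembles on each centromere and holds the microtubules of the mitotic spindle. A histone variant marks the centromere, a constitutive network of CENP proteins sits on it, and an outer layer binds microtubules. Kinetochores without microtubules send the spindle checkpoint signal that holds back anaphase. In dividing cells most of these genes are transcribed late in the cell cycle, so their RNA is high in cells in G2 and mitosis, and thyroid cancer lines in culture divide continuously.

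Many promoters of late cell cycle genes carry an element named CHR, the cell cycle genes homology region, whose common form is TTTGAA and whose rarer form is TTCGAA. The promoters of 9 of the 10 genes were found in the RefSeq annotation of GRCh38.p14, from 250 bases before to 50 after the start. Either form, on either strand, was present in 8 of these 9, against 16.4% of the 35116 promoter windows of that length in the annotation. TTTGAA alone was in 7 of the 9 and in 15.2% of all windows, and TTCGAA was in NDC80 and BUB1 and in 1.45% of all windows. In NDC80 the forms lie side by side across the start, with TTTGAA read on the opposite strand. In all 8 the match began between 23 bases before the start (BUB1B) and 41 after it (CENPF). The 5 promoters below are shown 5′ to 3′ along the gene. They set the genes with the greatest falls in TPC1 (CENPA, CENPF and BUB1) beside CENPN and CENPE. CENPN has a match and was not called in any line, and CENPE fell in TPC1 and BCPAP and has no match. NDC80, NUF2, BUB1B and MAD2L1 also have a match and were not called in any line in the gene fit over 12 arrays. The capitals mark TTTGAA or TTCGAA.
CENPA, chr2:26785806-26786105, plus strand: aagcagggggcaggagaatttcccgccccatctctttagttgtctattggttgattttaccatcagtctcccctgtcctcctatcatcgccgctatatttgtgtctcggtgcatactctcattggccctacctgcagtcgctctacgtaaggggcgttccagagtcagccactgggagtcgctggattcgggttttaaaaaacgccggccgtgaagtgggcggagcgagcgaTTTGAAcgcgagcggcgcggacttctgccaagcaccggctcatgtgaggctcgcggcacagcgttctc
CENPF, chr1:214602945-214603244, plus strand: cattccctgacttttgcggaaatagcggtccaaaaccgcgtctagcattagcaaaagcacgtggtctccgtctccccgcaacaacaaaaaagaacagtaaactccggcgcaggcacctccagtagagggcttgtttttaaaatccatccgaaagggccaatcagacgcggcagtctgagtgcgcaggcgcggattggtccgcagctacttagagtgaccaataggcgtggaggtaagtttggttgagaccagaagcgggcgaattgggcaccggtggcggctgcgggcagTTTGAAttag
BUB1, chr2:110678014-110678313, minus strand: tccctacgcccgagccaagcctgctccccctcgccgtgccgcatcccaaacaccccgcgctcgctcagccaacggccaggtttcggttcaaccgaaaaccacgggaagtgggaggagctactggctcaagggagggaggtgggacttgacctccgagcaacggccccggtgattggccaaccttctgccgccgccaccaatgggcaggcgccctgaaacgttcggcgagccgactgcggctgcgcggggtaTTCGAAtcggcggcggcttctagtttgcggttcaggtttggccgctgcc
CENPN, chr16:81006964-81007263, plus strand: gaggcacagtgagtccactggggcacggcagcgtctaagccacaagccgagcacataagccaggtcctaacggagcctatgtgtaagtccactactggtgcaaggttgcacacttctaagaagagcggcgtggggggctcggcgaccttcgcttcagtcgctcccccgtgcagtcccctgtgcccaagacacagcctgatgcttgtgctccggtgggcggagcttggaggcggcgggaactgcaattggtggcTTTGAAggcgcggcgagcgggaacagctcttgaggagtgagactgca
CENPE, chr4:103198294-103198593, minus strand: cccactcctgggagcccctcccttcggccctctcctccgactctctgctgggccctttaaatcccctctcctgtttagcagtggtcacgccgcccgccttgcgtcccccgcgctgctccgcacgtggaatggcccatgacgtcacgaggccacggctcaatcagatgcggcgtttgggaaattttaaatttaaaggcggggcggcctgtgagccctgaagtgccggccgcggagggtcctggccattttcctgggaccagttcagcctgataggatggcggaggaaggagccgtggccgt
In CENPA the match began 18 bases before the start, and in BUB1 and CENPN it began 2 and 4 bases after it. CENPE instead held TTTAAA, which was in 3 of the 9 (CENPA, CENPE and CENPF) and in 12.2% of all windows. CCAAT, the core of the site that the factor NF-Y binds, was in 5 of the 9 and in 34.6% of all windows. TTTCCCGC, a form of the E2F site, was in CENPA alone and in 1.63% of all windows. Each motif was searched on both strands. A match is a string of letters and not a site shown to be bound.

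Facts of the whole set of arrays bear on what follows. Between 16004 and 20376 probes of an array were above background, the lowest number on replicate 2 of untreated BCPAP cells, and the number of arrays limits the precision. Of 7 thyroid marker genes with a probe 3 were tested: PAX8 and FOXE1, above background on all 12 arrays, and NKX2-1, on 4. TG, SLC5A5 and SLC26A4 were above background on none. PAX8, a transcription factor of the thyroid lineage, was called lower with Y15 in TPC1, BCPAP and K1 (log2 changes -0.80, -0.35 and -0.48, adjusted p = 2.73e-05, 0.0122 and 0.00413 from limma), and FOXE1 in TPC1 alone (-0.64, adjusted p = 0.000204). NKX2-1 was called lower in BCPAP alone (-0.35, adjusted p = 0.00443 from limma). Of 6 epithelial genes KRT8 and KRT18 were above background on 12 arrays, KRT7 on 10, EPCAM on 5, KRT19 on 4 and CDH1 on 0. KRT7 fell by 0.49 in TPC1 (adjusted p = 0.000791) and KRT8 was not called in any line. Of 7 leukocyte, endothelial and fibroblast genes with a probe, PTPRC, CD3E and CDH5 were above background on none, PECAM1 on 1 array, PDGFRB on 3, COL1A2 on 4 and COL1A1 on 9. COL1A1, a collagen gene, fell by 0.56 in BCPAP and 0.34 in K1 (adjusted p = 0.00368 and 0.0492), and PDGFRB fell by 0.40 in TPC1 (adjusted p = 0.00954). The highest log2 signal of PDGFRB on any array was 7.006, close to the lowest detected signals of 6.865 and 6.872 on the TPC1 Y15 arrays. The part of these changes in the results was not tested. PTK2, which encodes FAK, was not called in any line (log2 changes -0.10, -0.33 and 0.03 for TPC1, BCPAP and K1, adjusted p = 0.583, 0.0751 and 0.907 from limma), and since Y15 acts on the protein this checks no label. The 2 K1 arrays with Y15 stand apart from each other for the kinetochore genes, and because limma shares 1 estimate of the spread per gene over all lines, this widens the errors in TPC1 and BCPAP too. The standard error of the CENPA change, for example, was 0.335 over 12 arrays and 0.0799 without the 4 K1 arrays. Results are therefore given with and without K1 arrays.

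In TPC1 cells Y15 lowered CENPA, CENPE, CENPF and BUB1, by 2.29- to 3.31-fold. These 4 of the 10 genes passed an adjusted p under 0.05 as lower and 0 passed as higher, where 16.1% of all genes were lower and 15.3% higher (limma, Benjamini-Hochberg over 12378 genes). The same 4 were over 2-fold lower, against 1.8% of all genes. The median log2 change of the 10 was -0.49, against 0.00 for all genes. In 9 of the 10, all but CENPN, both Y15 arrays lay below both untreated arrays, which held for 36.7% of all genes. In this bulk RNA, fewer cells in the late cell cycle and less of an RNA in each such cell cannot be told apart.

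CENPA, the histone H3 variant that marks the centromere, had log2 signals of 7.92 and 7.86 in TPC1 cells with Y15 and 9.35 and 9.39 in untreated TPC1 cells. The groups did not overlap, and CENPA fell by 1.48 (log2; limma standard error 0.335, adjusted p = 0.00585). CENPM and CENPN, 2 proteins of the constitutive network, did not pass the test in TPC1. CENPM had log2 signals of 9.12 and 9.22 with Y15 and 9.60 and 9.65 untreated, a log2 change of -0.46 without overlap (adjusted p = 0.238). CENPN, which reads the CENPA nucleosome, had 8.86 and 8.91 with Y15 and 8.88 and 9.01 untreated. Its arrays overlapped, and the 95% confidence interval of its log2 change ran from -0.36 to 0.24.

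NDC80 and NUF2 pair in the outer kinetochore and bind the microtubule. NDC80 had log2 signals of 7.39 and 7.46 in TPC1 cells with Y15, against 8.00 and 7.89 in untreated ones, and a log2 change of -0.52 (adjusted p = 0.144 from limma). NUF2 had 7.05 and 7.00 with Y15, against 7.37 and 7.37 untreated, and a log2 change of -0.34 (adjusted p = 0.133). Both were lower on each Y15 array without passing the test. The NUF2 signal was close to background, with room for a log2 fall of 0.50 before the lowest signal detected on the Y15 arrays.

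CENPE, the kinesin motor that carries chromosomes to the spindle equator, had log2 signals of 7.89 and 7.95 in TPC1 cells with Y15 and 9.05 and 9.18 in untreated ones. It fell by 1.19 (log2; limma standard error 0.279, adjusted p = 0.00704). CENPF, a large coiled-coil protein of the outer kinetochore whose amount peaks in G2 and mitosis, had 8.02 and 7.97 with Y15 and 9.77 and 9.67 untreated. CENPF fell by 1.73 (standard error 0.320, adjusted p = 0.0018), more than the other 9 genes in TPC1.

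Of the checkpoint genes, BUB1, a kinase of the kinetochore, had log2 signals of 7.75 and 7.77 in TPC1 cells with Y15 and 9.18 and 9.00 in untreated ones. BUB1 fell by 1.33 (log2; limma standard error 0.354, adjusted p = 0.0143). BUB1B, which encodes BUBR1, a part of the complex that inhibits anaphase, had 7.18 and 7.08 with Y15 and 7.25 and 7.36 untreated. MAD2L1, which encodes MAD2, another part of that complex, had 9.61 and 9.57 with Y15 and 9.91 and 10.04 untreated. Neither passed the test (log2 changes -0.17 and -0.38, adjusted p = 0.486 and 0.406). Each of their Y15 arrays was below each untreated array, and BUB1B had room for a log2 fall of only 0.44 above the lowest detected signal.

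Without the 4 K1 arrays, 8 of the 10 genes were called lower in TPC1, where 19.7% of all genes were. The 4 added were CENPM (adjusted p = 0.000775 from limma), NDC80 (0.000149), NUF2 (0.00359) and MAD2L1 (0.00105), with the same log2 changes as above. CENPN (0.631) and BUB1B (0.225) stayed outside. The count was also 8 with the 4 TPC1 arrays alone, where 23.5% of all genes were lower. Without replicate 2 of untreated TPC1 cells it was 2.

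**Figure D1:**
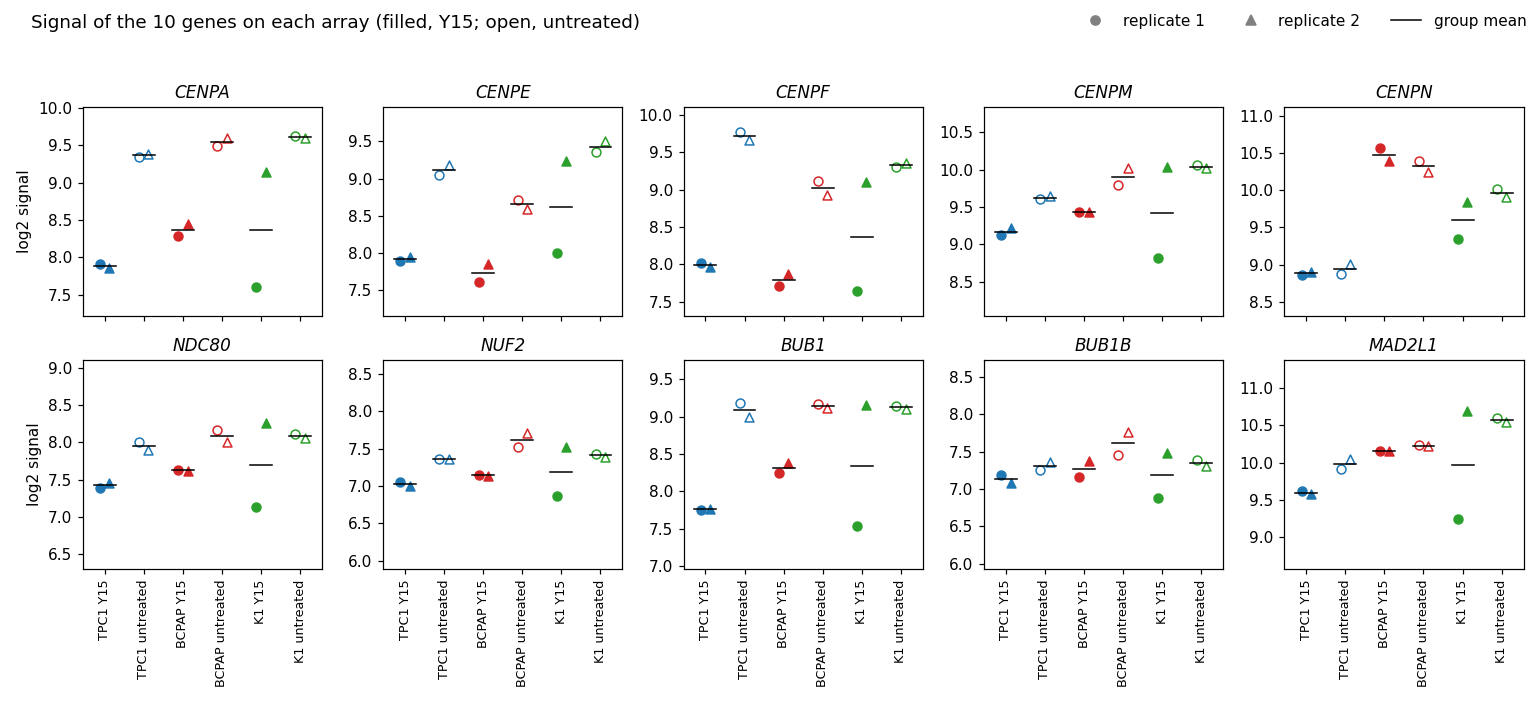
Log2 signal (vertical axes, log2 of the quantile-normalized signal, all of the same span) of the brightest probe of the 10 genes on each of the 12 arrays. Filled symbols are Y15 arrays and open symbols untreated arrays of TPC1 (blue), BCPAP (red) and K1 (green), circles are replicate 1, triangles replicate 2 and lines group means. The Y15 arrays of TPC1 and BCPAP lie together and, except for CENPN, below the untreated arrays, while the 2 Y15 arrays of K1 lie apart for each gene.

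In BCPAP cells Y15 lowered CENPA, CENPE and CENPF, by 1.90- to 2.35-fold. These 3 of the 10 were called lower and 0 higher, where 7.6% of all genes were called lower and 8.65% higher. CENPA and CENPF were over 2-fold lower, against 0.372% of all genes. The median log2 change of the 10 was -0.47, against 0.01 for all genes, and both Y15 arrays lay below both untreated arrays for 9 of the 10, against 27% of all genes. The exception was again CENPN. With median centring of the arrays in place of quantile normalization, which moved the median log2 change of all genes in BCPAP to 0.24, 0 of the 10 genes were called there, their median log2 change was -0.14, and 6 of 2096 genes called were lower, in place of 941 of 2012.

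CENPA had log2 signals of 8.28 and 8.44 in BCPAP cells with Y15, against 9.49 and 9.60 in untreated BCPAP cells. It fell by 1.18 (log2; limma standard error 0.335, adjusted p = 0.034). CENPM had 9.43 on both Y15 arrays, against 9.79 and 10.02 untreated, with a log2 change of -0.47 (adjusted p = 0.266). CENPN had 10.57 and 10.39 with Y15, against 10.39 and 10.25 untreated, and a log2 change of 0.16 (adjusted p = 0.48). Of these 3, CENPA and CENPM did not overlap between the groups. For CENPN replicate 2 with Y15 lay just under replicate 1 without it.

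NDC80 had log2 signals of 7.63 and 7.62 in BCPAP cells with Y15 and 8.16 and 8.00 in untreated ones. NUF2 had 7.15 and 7.13 with Y15 and 7.52 and 7.71 untreated. Both were lower on each Y15 array, with log2 changes of -0.46 and -0.47, and did not pass the test (adjusted p = 0.25 and 0.065 from limma). CENPE had 7.62 and 7.85 with Y15 and 8.72 and 8.59 untreated and fell by 0.92 (standard error 0.279, adjusted p = 0.0446). CENPF had 7.71 and 7.88 with Y15 and 9.12 and 8.93 untreated and fell by 1.23 (standard error 0.320, adjusted p = 0.0234). For both, the gap between the groups exceeded the spread within either.

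BUB1 had log2 signals of 8.24 and 8.37 in BCPAP cells with Y15, against 9.17 and 9.11 in untreated ones. Its log2 change of -0.83 did not pass the test (standard error 0.354, adjusted p = 0.138 from limma), although the gap between the groups was wide. BUB1B had 7.16 and 7.38 with Y15, against 7.46 and 7.77 untreated (log2 change -0.35, adjusted p = 0.185). MAD2L1 had 10.15 and 10.16 with Y15, against 10.23 and 10.22 untreated, and was nearly level in this line (log2 change -0.07, 95% confidence interval -0.76 to 0.62).

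Without the 4 K1 arrays, 8 of the 10 genes were called lower in BCPAP, where 12.7% of all genes were. BUB1 (adjusted p = 1.13e-05 from limma), NUF2 (0.00066), NDC80 (0.000972), CENPM (0.00119) and BUB1B (0.027) were added. MAD2L1 (0.532) and CENPN (0.206) were not. With the 4 BCPAP arrays alone 7 were called, all of these but BUB1B, where 8.57% of all genes were lower. The 3 calls of the fit over 12 arrays ended when any 1 BCPAP array was left out, 1 call was made without any 1 TPC1 or untreated K1 array, and the call of CENPA ended with neqc background correction.

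In K1 cells the 2 Y15 arrays gave different pictures, so they are described apart. Replicate 1 lay below both untreated arrays for 10 of the 10 genes, where 42.8% of all genes did, and replicate 2 for 4 of the 10, where 39% of all genes did. Relative to the mean of the untreated K1 arrays the median log2 change of the 10 was -1.27 on replicate 1 and 0.01 on replicate 2, and for all genes it was 0.00 on both. On replicate 1, 6 of the 10 were over 2-fold lower, against 1.34% of all genes, and on replicate 2, 0 were, against 0.226%. The SD between the 2 Y15 arrays ran from 0.349 (CENPN) to 1.15 (BUB1) and was above 0.5 for 7 of the 10, against 3.26% of all genes. Between the 2 Y15 arrays of TPC1 or of BCPAP it was above 0.5 for 0 of the 10, against 0.00808% and 0% of all genes. In every other group the SD of a member gene was at most 0.218.

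CENPA had log2 signals of 7.60 on replicate 1 and 9.14 on replicate 2 of K1 with Y15, against 9.63 and 9.61 in untreated K1 cells. Both Y15 arrays were lower, with log2 changes of -2.02 and -0.48 from the untreated mean. CENPA was the 1 gene of the 10 called lower in K1, by 1.25 (standard error 0.335, adjusted p = 0.0376 from limma), where 5.93% of all genes were called lower and 4.62% higher, and 0.388% were over 2-fold lower. CENPE had 8.00 and 9.23 with Y15, against 9.35 and 9.50 untreated, and CENPF had 7.65 and 9.10, against 9.31 and 9.36. For these 2 genes both Y15 arrays were lower as well, with log2 changes of -0.81 and -0.96 that did not pass the test (adjusted p = 0.0887 and 0.0808).

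CENPN had log2 signals of 9.35 and 9.84 in K1 cells with Y15, against 10.01 and 9.91 in untreated ones, with a log2 change of -0.36 (adjusted p = 0.115 from limma). It completes the 4 genes of the 10 for which both Y15 arrays lay below both untreated K1 arrays, against 25.2% of all genes. Because replicate 1 lay below for all 10, this count is that of replicate 2, which is near the 39% of all genes on that array. BUB1 showed the widest gap between the replicates, with 7.53 on replicate 1 and 9.16 on replicate 2 with Y15, against 9.14 and 9.11 untreated. Replicate 2 thus lay above both untreated arrays. MAD2L1 followed the same form, with 9.25 and 10.70 with Y15, against 10.60 and 10.54 untreated.

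NDC80 had log2 signals of 7.14 and 8.26 in K1 cells with Y15, against 8.12 and 8.05 in untreated ones. NUF2 had 6.86 and 7.52 with Y15, against 7.43 and 7.39 untreated, and on replicate 1 it was not above background. BUB1B had 6.88 and 7.48 with Y15, against 7.39 and 7.31 untreated. For each of these 3 genes replicate 1 was lowest and replicate 2 highest of the 4 K1 arrays. CENPM had 8.82 and 10.03 with Y15, against 10.06 and 10.02 untreated, so that replicate 2 lay between the untreated arrays.

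The mean signal was 305.9 on replicate 1 and 348.2 on replicate 2, with 18735 and 18883 probes above background on those arrays. Across the 409 genes called lower in both TPC1 and BCPAP, the median log2 change in K1 was -0.35 on replicate 1 and -0.17 on replicate 2, and across the 422 called higher in both it was 0.31 and 0.13. The medians of both arrays moved the same way over these sets, replicate 1 further. The calls used errors that include the gap between these 2 arrays, so genes with a wide gap passed less readily. The sets therefore cannot show how far the arrays agree over all genes. The cause of the gap was not tested.

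Without Y15 replicate 2, all 10 genes were called lower in K1, where 14.6% of all genes were, and without Y15 replicate 1 only CENPA was, where 4.77% were (limma). In these fits the lone Y15 array is assumed to vary like the other groups. With the 4 K1 arrays alone 0 of the 10 were called and 0 had an unadjusted p under 0.05, and 0 of all genes were called, with 1995 at an unadjusted p under 0.05 (limma). The call of CENPA in K1 ended without any 1 of the other 10 arrays, untreated K1 arrays included.

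**Figure D2:**
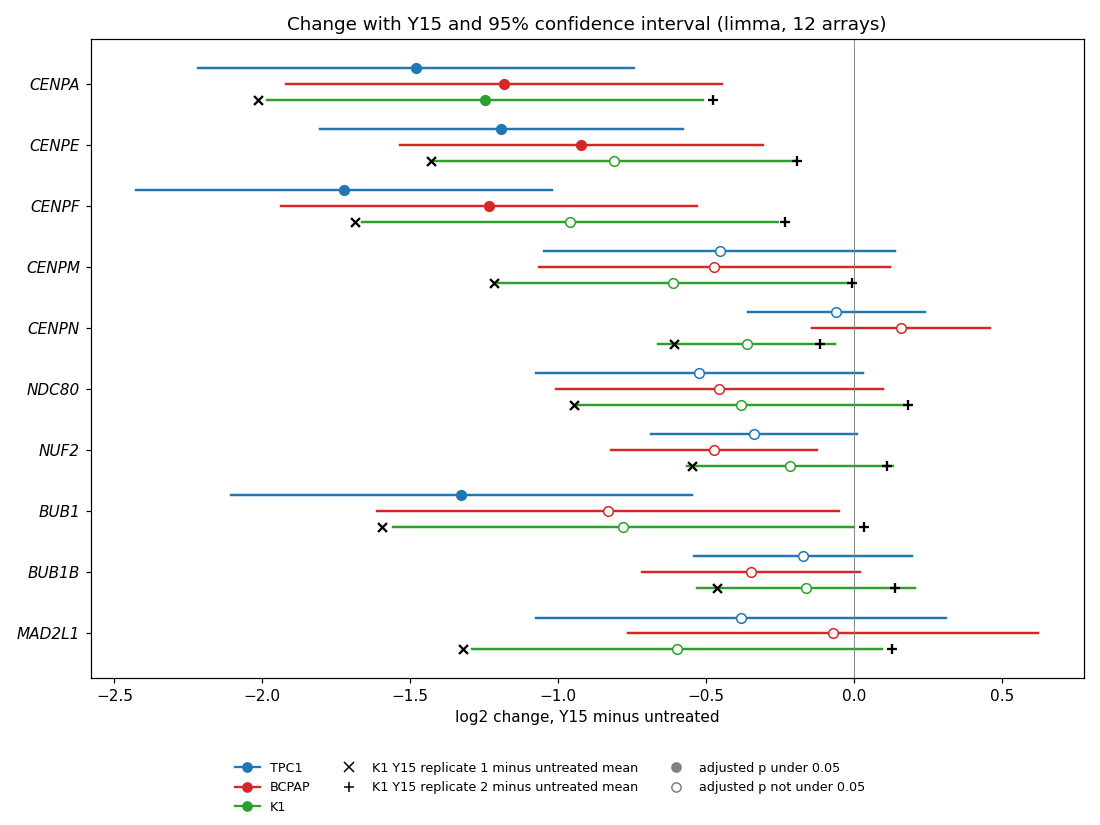
Log2 change with Y15 (horizontal axis, Y15 minus untreated) of the 10 genes in TPC1 (blue), BCPAP (red) and K1 (green), with 95% confidence intervals from limma over 12 arrays. Filled circles have an adjusted p under 0.05, and the black crosses give the change of K1 Y15 replicates 1 and 2 from the untreated K1 mean. CENPA is filled in the 3 lines, and for each gene the K1 circle is the midpoint of 2 values that lie far apart.

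CENPA was the only gene of the 10 called lower in TPC1, BCPAP and K1, which 1.09% of all genes were. For CENPA, CENPE and CENPF both Y15 arrays lay below both untreated arrays in all 3 lines, which held for 7.06% of all genes. Of these 3, CENPA and CENPF have TTTGAA near the start and CENPE has neither form. BUB1, with TTCGAA, was called in TPC1 alone. CENPN, NDC80, NUF2, BUB1B and MAD2L1 have a match near the start and were not called in any line in this fit. A relation between the motif and the change with Y15 was not tested. A difference between the lines in the response to Y15 was called for 0 of the 10 genes, with 0 also at an unadjusted p under 0.05 (F test of limma), where 18.5% of all genes were called. The adjusted p ran from 0.167 for CENPN to 0.951 for NDC80. The intervals were wide: the change of CENPF in BCPAP exceeded that in TPC1 by 0.49 (95% confidence interval -0.50 to 1.49). Without K1 Y15 replicate 1 the F test called 8 of the 10, where 35% of all genes were called, and without Y15 replicate 2 it called 8, where 34.8% were. These are 7 genes called in both fits (CENPA, CENPE, CENPF, CENPM, NDC80, BUB1 and MAD2L1), with NUF2 added in the one and CENPN in the other. The direction was not shared. Without replicate 1 the change in K1 was less negative than in TPC1 for 7 of the 7, and without replicate 2 it was more negative for 6 of the 7, all but CENPF. MAD2L1, for example, had a log2 change in K1 of 0.13 without replicate 1 and of -1.33 without replicate 2, beside -0.38 in TPC1 in both fits.

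Without the 4 K1 arrays the change in BCPAP differed from that in TPC1 for 3 of the 10 genes, where 26.9% of all genes differed (limma). The count is near the share of all genes. CENPF fell less in BCPAP than in TPC1, with a difference in log2 change of 0.49 (adjusted p = 0.0101), and so did BUB1, by 0.50 (adjusted p = 0.00714). MAD2L1, called lower in TPC1 in that fit, differed by 0.31 (adjusted p = 0.0439). For CENPA the difference was 0.30 (standard error 0.113, adjusted p = 0.0683) and did not pass.

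Probes of 1 gene bind different parts of its RNA. The 10 genes had 17 probes, of which 15 were tested over 21600 probes, and CENPF, CENPN, NDC80, BUB1 and BUB1B had 1 each. Lower calls were made for 6 of the 15 probes in TPC1, where 13.2% of all probes were lower, for 5 in BCPAP, where 6.05% were, and for 2 in K1, where 4.5% were. The 5 tested probes beside the brightest ones had log2 changes below 0 in each of the 3 lines. The 2 probes not tested were the third probe of NUF2, above background on 0 of the 12 arrays, and the second of MAD2L1, above background on 5.

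The second probe of CENPA had log2 signals of 7.18 and 7.28 in TPC1 cells with Y15 and 8.32 and 8.25 in untreated ones, of 7.75 and 7.75 against 8.53 and 8.65 in BCPAP, and of 7.10 and 8.10 against 8.50 and 8.45 in K1. It was lower on both Y15 arrays of each line and was called in each, with log2 changes of -1.06, -0.84 and -0.87 (adjusted p = 0.00445, 0.0287 and 0.036 from limma). The second probe of CENPE was called in TPC1 (log2 change -0.78, adjusted p = 0.025) but not in BCPAP (-0.46, adjusted p = 0.208) or K1 (-0.70, adjusted p = 0.0872). The second probe of NUF2 fell by 0.65 in BCPAP (adjusted p = 0.0235), where 1 of the 2 Y15 arrays was above background. The brightest probe of NUF2 did not pass there. The 2 further probes of CENPM had log2 changes between -0.55 and -0.18 over the 3 lines and were not called.

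**Figure D3:**
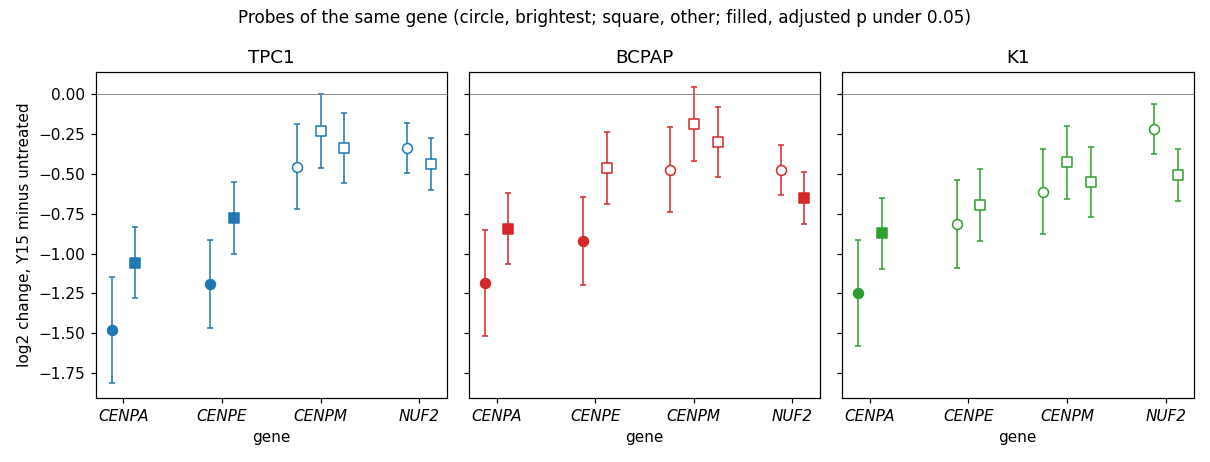
Log2 change with Y15 (vertical axis, Y15 minus untreated, with standard errors of limma) of the tested probes of CENPA, CENPE, CENPM and NUF2 in TPC1, BCPAP and K1. Circles are the brightest probe of a gene, squares the others, and filled symbols have an adjusted p under 0.05. Every point lies below 0, and both probes of CENPA are filled in each line.

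In untreated cells the levels of 8 of the 10 genes were not called different between any of the lines. CENPN was the exception among the members in all 3 contrasts. It had a mean log2 signal of 8.95 in untreated TPC1, 10.32 in untreated BCPAP and 9.96 in untreated K1 cells. It was lower in TPC1 than in BCPAP with a log2 difference of -1.37 (adjusted p = 6.46e-06 from limma) and than in K1 with one of -1.02 (adjusted p = 0.000114), and higher in BCPAP than in K1 by 0.36 (adjusted p = 0.0487). CENPE, at 8.66 in BCPAP and 9.43 in K1, was lower in BCPAP with a log2 difference of -0.77 (adjusted p = 0.0397). The other 26 of the 30 comparisons did not pass, with differences of at most 0.70 in size on the log2 scale, and neighbours in the order of lines are not separated there. Of all genes, 53% differed between TPC1 and BCPAP, 37.6% between TPC1 and K1 and 48.2% between BCPAP and K1. Without either K1 Y15 array, 19 of the 30 comparisons passed, and without any 1 of the other 10 arrays, or with neqc, 2 passed, both of CENPN.

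Over the 12 arrays the 10 genes mostly moved as 1 profile. The mean log2 signal of the 10 was 8.08 and 8.08 in TPC1 with Y15 and 8.84 and 8.86 untreated, 8.39 and 8.46 in BCPAP with Y15 and 9.01 and 9.02 untreated, and 7.91 and 9.05 in K1 with Y15 and 9.10 and 9.08 untreated. The array of K1 with Y15 replicate 1 had the lowest of these 12 means, and replicate 2 lay just under the untreated K1 arrays. The correlation of each gene with the mean of the other 9 was highest for BUB1 (Pearson r = 0.980 over 12 arrays), CENPA (0.971), NDC80 (0.967), CENPM (0.962) and NUF2 (0.925). It was 0.850 for MAD2L1 and between 0.772 and 0.791 for BUB1B, CENPF and CENPE. CENPN stood apart at 0.263. The 45 pairs of genes had r from -0.11 to 0.98, with a median of 0.78. The arrays share 3 lines and 1 treatment, so these are descriptions of 12 points that are not independent.

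Outside the 10, the genes whose signal was most like the mean profile over the 12 arrays were RACGAP1 (r = 0.986), KIF18A (0.983), CDCA3 (0.983), CDK1 (0.981), PRC1 (0.977), NEK2 (0.976), TTK (0.976), CDC20 (0.976), CCNB2 (0.976) and SUV39H1 (0.975). CDK1 and CCNB2 form the kinase that drives entry into mitosis, CDC20 is the activator of anaphase that the checkpoint holds back, and TTK is a checkpoint kinase. RACGAP1 and PRC1 act at the spindle midzone. CCNB2 had log2 changes of -2.23 and -0.43 on K1 Y15 replicates 1 and 2, and CDC20 had -1.91 and 0.00. These genes were chosen for their likeness over arrays that include this pair, so that split is a description.

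Of 47 further genes of the centromere, kinetochore and checkpoint, 44 were measured. In TPC1, 13 were lower, 0 higher and 31 not called, where 16.1% of all genes were lower and 15.3% higher, and the median log2 change was -0.29. Of the same genes 4 were lower and 2 higher in BCPAP (median -0.23), where 7.6% of all genes were lower and 8.65% higher. In K1 3 were lower and 1 higher (median -0.25), where 5.93% of all genes were lower and 4.62% higher, so that the lower calls in BCPAP and K1 lie near the share of all genes. Without the 4 K1 arrays, 27 were lower and 1 higher in TPC1, where 19.7% of all genes were lower and 18.9% higher, and 21 were lower and 4 higher in BCPAP, where 12.7% and 13.4% were. Relative to untreated K1 cells, K1 Y15 replicate 1 was below both untreated arrays for 41 of the 44 (median -0.52), against 42.8% of all genes, and replicate 2 for 13 (median 0.10), against 39%. The count on replicate 2 is below the share of all genes.

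Among the other genes of the inner kinetochore and centromere, 3 of 13 were lower in TPC1, 1 was lower and 1 higher in BCPAP, and 0 were called in K1. Lower calls made up 16.1%, 7.6% and 5.93% of all genes for the lines TPC1, BCPAP and K1, and higher calls 8.65% in BCPAP. In BCPAP 1 of 13 is near the share of all genes in either direction. CENPB, which binds the repeats of centromeric DNA, was lower in TPC1 (log2 change -0.26, adjusted p = 0.0466 from limma) and BCPAP (-0.62, adjusted p = 0.00125). CENPS, a histone-fold protein, fell by 0.41 in TPC1 (adjusted p = 0.0191), had 0.28 in BCPAP (adjusted p = 0.128), and differed between the lines (adjusted p = 0.0253, F test). The gene called higher in BCPAP was CENPP (0.49, adjusted p = 0.0446), named after its value was seen.

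Of the genes that load CENPA onto chromatin, 4 of 5 measured were lower in TPC1, 0 in BCPAP and 2 in K1, beside the same shares of all genes. HJURP, the chaperone of CENPA, fell by 1.26 in TPC1 (adjusted p = 0.00908 from limma) and had -0.67 and -0.89 in BCPAP and K1 (adjusted p = 0.17 and 0.0903). OIP5, a part of the MIS18 complex, fell by 1.06 in TPC1 (adjusted p = 0.0149) and by 0.99 in K1 (adjusted p = 0.0491). On K1 Y15 replicates 1 and 2 OIP5 had -1.65 and -0.34. RBBP4, a histone chaperone that also serves other chromatin complexes, fell by 0.38 in TPC1 (adjusted p = 0.0152) and by 0.42 in K1 (adjusted p = 0.0257), with -0.46 and -0.38 on the 2 K1 Y15 arrays.

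Of 11 other outer kinetochore genes, 1 was lower in TPC1, 2 in BCPAP and 0 in K1, where 16.1%, 7.6% and 5.93% of all genes were. In TPC1 and K1 the share called was thus below that of all genes. Both Y15 arrays nevertheless lay below both untreated arrays for 9, 7 and 4 of the 11 in TPC1, BCPAP and K1, against 36.7%, 27% and 25.2% of all genes. SKA2, a part of the complex that keeps hold of shrinking microtubules, fell by 0.83 in TPC1 and 0.68 in BCPAP (adjusted p = 0.00802 and 0.0398 from limma). SPC24, a partner of NDC80 and NUF2 in the same complex, fell by 1.01 in BCPAP (adjusted p = 0.0425) and had -0.80 in TPC1 and -0.93 in K1 (adjusted p = 0.0664 and 0.073). Of 11 other checkpoint genes, 3 were lower in TPC1, where 16.1% of all genes were. In each of BCPAP and K1 1 was higher, where 8.65% and 4.62% of all genes were. In BCPAP that count is near the share of all genes, and in K1 it is a single gene. TTK fell by 0.97 and SGO2, a protector of cohesion at the centromere, by 0.95 in TPC1 (adjusted p = 0.036 and 0.0178). The gene higher in BCPAP was MAD1L1, the partner of MAD2 at the kinetochore (log2 change 0.32, adjusted p = 0.0363). In K1 the gene was MAD2L1BP, which takes MAD2 out of its complex (0.39, adjusted p = 0.0315, with 0.57 and 0.22 on Y15 replicates 1 and 2). Both were named after their values were seen.

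Of the chromosomal passenger complex, which corrects wrong attachments, 2 of 4 genes were lower in TPC1 and 1 in each of BCPAP and K1, beside the same shares of all genes. CDCA8, which encodes borealin, fell by 0.87 in TPC1 (adjusted p = 0.023 from limma), and BIRC5, which encodes survivin, fell by 1.47 there (adjusted p = 0.00958). INCENP, the scaffold of the complex, fell by 0.43 in BCPAP and 0.59 in K1 (adjusted p = 0.0363 and 0.0125) and had -0.18 in TPC1 (adjusted p = 0.298). On K1 Y15 replicates 1 and 2 it had -0.83 and -0.36.

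Mitotic kinesins had a greater median change than the 10 genes, and the genes of the MCM helicase, which unwinds DNA in S phase, a smaller one. Of 11 measured kinesins 7 were lower in TPC1, where 16.1% of all genes were, 1 in BCPAP, where 7.6% were, and 2 in K1, where 5.93% were. In the fit over 12 arrays the count of calls in BCPAP is near the share of all genes. All 11 kinesins nevertheless had both BCPAP Y15 arrays below both untreated arrays, against 27% of all genes. Their median log2 changes were -0.91, -0.54 and -0.75 in that order of lines. KIF20A, a motor of cytokinesis, fell by 2.20 in TPC1 and in BCPAP (adjusted p = 0.00263 and 0.00641 from limma) and had -2.44 and -0.41 on the 2 K1 Y15 arrays. KIFC1, which clusters spindle poles, fell by 1.26 in TPC1 and 0.90 in K1 (adjusted p = 0.00232 and 0.0385), and KIF22 by 0.84 and 0.76 (adjusted p = 0.0118 and 0.0469). On K1 Y15 replicates 1 and 2 KIFC1 had -1.45 and -0.36, and KIF22 had -1.19 and -0.33. Of 6 MCM genes 3 were lower in TPC1, 1 in BCPAP and 1 in K1, beside the same shares of all genes, and their medians were -0.45, -0.20 and -0.31. MCM6 fell in each line, by 0.85, 0.55 and 0.50 (adjusted p = 0.000242, 0.00829 and 0.0195), and was lower on both K1 Y15 arrays, by 0.70 and 0.31 from the untreated mean. MCM4 fell by 0.78 in TPC1 (adjusted p = 0.0306) and was not called in the other lines. Differences between these lists were not tested.

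**Figure D4:**
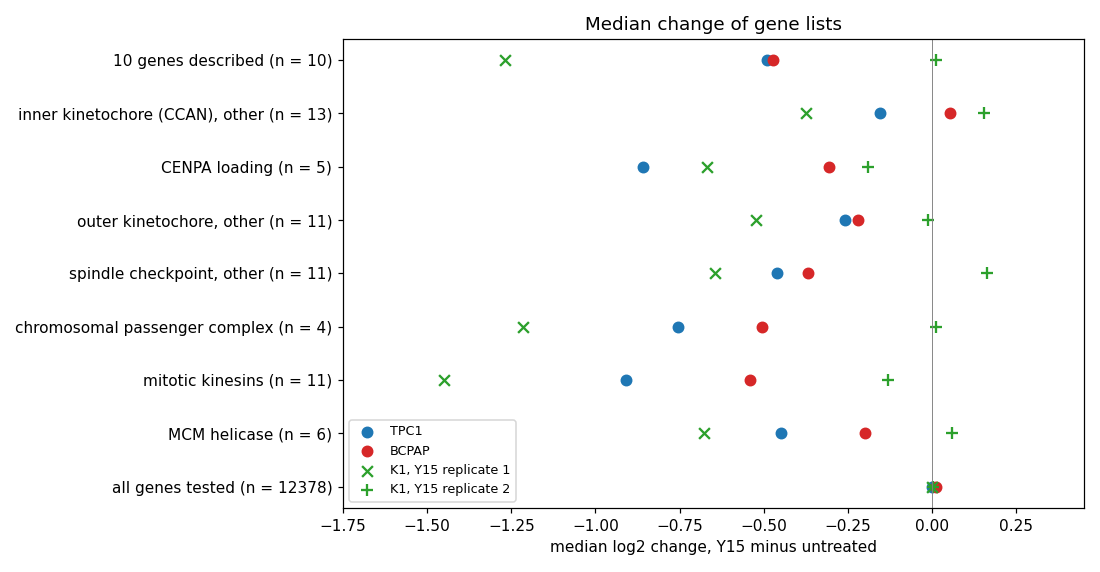
Median log2 change with Y15 (horizontal axis, Y15 minus untreated) of the 10 genes and of related gene lists, with the number of genes measured in brackets. Circles give TPC1 (blue) and BCPAP (red), and green symbols give K1 Y15 replicate 1 (x) and replicate 2 (+) apart, each against the untreated K1 mean. In each list of mitotic or replication genes the median of replicate 1 lies to the left of that of replicate 2, and for the 10 genes they are -1.27 and 0.01.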

How the data were processed

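Total RNA of 12 samples was hybridised to Illumina bead arrays. The authors exported probe intensities, each with a detection p-value, from GenomeStudio and deposited log2 values after quantile normalization in R. The intensities were floored at 1, converted to log2 and quantile normalized, which gave the deposited log2 values within 5e-09. The methods name another array type than the annotation, which lists 47323 probes, 30109 with 1 gene symbol, 8 with several and 17194 with none here.

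Each gene was represented by its brightest probe among those with a detection p under 0.05 on both arrays of at least 1 group. limma 3.58.1 (R 4.3.3) was fitted over 12 arrays and 6 groups, and p-values were adjusted by Benjamini-Hochberg over 12378 genes, or over 21600 probes in the fit of every probe. Above background means a detection p under 0.05, and called means an adjusted p under 0.05. Intervals are 95% confidence intervals. The number of arrays sets the precision, since arrays carry no read depth.

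Alternatives were median centring, neqc, the deposited values, other detection filters, each line alone, array quality weights, a replicate block, leaving out each array and, added after the data were seen, leaving out the 4 K1 arrays. Named are all member genes, and of other lists the genes called in at least 2 lines and the 2 with the greatest mean absolute change. The 10 genes most like the members' mean profile are also named. The members and lists were chosen with earlier results of these data known. The main fit did not treat arrays with the same replicate number as pairs. The correlation of their deviations was 0.193, -0.182 and -0.00995 in TPC1, BCPAP and K1, which with 2 arrays a group cannot show whether they were paired.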

Additional observations from a re-analysis of the deposited data

Results flagged for a closer look

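CENPN was the only one of the 10 genes for which the Y15 arrays of one line lay on the other side of the untreated mean from those of another. Its log2 change with Y15 in TPC1 minus that in BCPAP was -0.22, and that in BCPAP minus that in K1 was 0.52. In BCPAP both Y15 arrays lay above the untreated mean, and in TPC1 and K1 both lay below theirs. This sorting by sign is no test. The F test of limma over the 3 lines did not call CENPN (adjusted p = 0.167), and the TPC1 and BCPAP arrays with Y15 overlapped the untreated ones.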

How the results depend on the processing

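Each group had 2 arrays, and the spread of the 2 K1 arrays with Y15 set the errors of these genes in every line. Over the 10 genes, leaving out 1 array at a time gave 2 to 8 called in TPC1 (4 with all arrays), 0 to 8 in BCPAP (3) and 0 to 10 in K1 (1). The same gave 0 to 8 called by the F test between lines (0), 2 to 19 of 30 comparisons of untreated lines (4), and 5 to 39 calls over 15 probes in 3 lines (13). The count of 8 in TPC1 and in BCPAP came without either K1 Y15 array and also without the 4 K1 arrays. With the arrays of a line alone there were 8, 7 and 0 calls in TPC1, BCPAP and K1. With array quality weights there were 8, 5 and 3, and 12 comparisons of untreated lines. With median centring BCPAP and K1 had 0 calls and the probe fit 6, with neqc K1 had 0, untreated lines 2 and the probe fit 8, and with no detection filter BCPAP had 1, K1 0 and untreated lines 2. With the replicate block 4, 3 and 1 genes were called in TPC1, BCPAP and K1 and 0 by the F test, the counts of the fit without it. Signs turned for CENPM (0.12) and MAD2L1 (0.51) in BCPAP with median centring. Leaving out 1 array turned the sign of CENPN in TPC1 (range -0.12 to 0.0027, positive without untreated replicate 2) and, in K1, positive without Y15 replicate 1 and lowest without Y15 replicate 2, of NDC80 (-0.94 to 0.18), NUF2 (-0.54 to 0.11), BUB1 (-1.59 to 0.033), BUB1B (-0.46 to 0.14) and MAD2L1 (-1.33 to 0.13). None of these had been called. Where no value above shows it, the cause was not tested. NUF2 and BUB1B had little room to fall above background, and the part of this in their changes was not tested.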
